A study of Homo sapiens with 5 samples.

Results

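Molecular chaperones bind unfolded or partly folded proteins and keep them from aggregating. HSP70 proteins do so in cycles of ATP hydrolysis that J-domain proteins (DNAJA, DNAJB and DNAJC) start and that nucleotide exchange factors such as the HSP110 proteins end. HSP90 acts on clients that are nearly folded, the mitochondrial chaperonin HSPD1 with its lid HSPE1 folds imported proteins, and the cytosolic chaperonin TRiC, built of TCP1 and the CCT subunits, folds actin, tubulin and other proteins. Heat shock factor HSF1 drives the inducible members during proteotoxic stress, and many others are expressed in unstressed, growing cells.

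The chaperone genes were described in MDA-MB-231 cells, an established human breast cancer line labelled as estrogen receptor negative and basal, and the groups compared were cells given water as a mock control and cells given 10 µM fluvastatin, both for 24 h. Fluvastatin is a statin, an inhibitor of the mevalonate pathway. RNA was measured on Illumina bead arrays. The labels name 3 control samples and 2 fluvastatin samples. In 47231 of 47231 probes control replicate 2 held the mean of control replicates 1 and 3, so 2 control arrays were compared with 2 fluvastatin arrays. The treatment field of the fluvastatin samples carries the text for the mock control, and their titles and characteristics give fluvastatin. All samples are of 1 cell line. The labels do not say whether replicates came from different cultures, and the p-values therefore reflect no more than array-to-array spread, which may be technical.

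Members were chosen by gene symbol and not by compartment, leaving out the endoplasmic reticulum stress genes HSPA5, DNAJB9, DNAJB11 and DNAJC3. They covered HSP70 and HSP110 (HSPA and HSPH1), HSP90A, HSPD1, HSPE1, small heat shock proteins (HSPB), DNAJA, DNAJB, DNAJC, and TCP1 with the CCT subunits. The array held 128 probes for 80 such genes, among 47231 probes that name 20046 genes. A probe was kept when its detection p-value was below 0.05 on at least 2 arrays, which left 98 probes of 67 genes among 21986 probes. Of the 98, 91 were detected on all 4 arrays. The 13 genes with no probe kept were CCT8L2, DNAJA4, DNAJB7, DNAJB8, DNAJB13, DNAJC5B, DNAJC5G, DNAJC6, HSPA12B, HSPB2, HSPB6, HSPB7 and HSPB9. Just inside that limit, detected on 2 arrays, lay 6 probes, of DNAJC12, DNAJC16, HSPA2, HSPB3 and, with 2 probes, HSPA6. Just outside it, detected on 1 array, lay a probe of DNAJB8 and the other probe of HSPA2. The raw intensities of the kept HSPA2 probe were 85.5 and 77.0 in controls and 71.9 and 76.2 with fluvastatin, and those of the probe left out were 77.5, 68.7, 54.8 and 70.8 in the same order.

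Between 43.0% and 46.9% of all probes were detected per array. Across the probes kept, the controls correlated with r = 0.994 and the fluvastatin arrays with r = 0.982, and probes are not independent replicates. Probes of ESR1, PGR and CDH1 were detected on 0 arrays, while VIM, CD44 and CAV1 were detected by every probe. EGFR was detected by 2 of 4 probes and ERBB2 by 1 of 3. EPCAM was detected by 3 of 3. Of markers of other cells, PTPRC (leukocytes) was detected by 0 of 4 probes. The PECAM1 (endothelium) probe was detected on 1 control array and both fluvastatin arrays and had a mean log2 value of 4.88 in controls and 6.07 with fluvastatin (adjusted p = 0.0735), and its part in the results was not tested.

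Chaperone probes that changed with fluvastatin were mostly lower. The HSP110 genes HSPA4L, HSPA4 and HSPH1 fell, as did 2 probes of the mitochondrial chaperonin HSPD1, and the TRiC subunits CCT3, CCT6A and CCT8. Lower too were the pseudogene CCT6P1, the HSP70 gene HSPA14 and the J-protein genes DNAJA3, DNAJC9 and DNAJC11. For HSPD1, CCT3 and CCT6A the brightest probe did not pass. DNAJB2, DNAJC4 and CCT6B rose. The constitutive HSC70 gene HSPA8, the HSP90 genes and the stress-inducible HSPA1A, HSPA1B and DNAJB1 did not pass the test. Of the 98 probes, 13 were lower and 3 higher (limma, adjusted p below 0.05 over all probes kept) and 82 did not pass.

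The share of chaperone probes that changed in either direction was 16.3%, near the 16.9% of all probes kept. The split differed in its values: 13.3% were lower, where 8.29% of all probes were, and 3.06% were higher, where 8.64% of all probes were. Changes of at least 2-fold were found for 4 chaperone probes that were lower and 1 that was higher, beside 3.82% and 4.19% of all probes. The groups did not overlap for 45 probes that were lower (45.9%, and 31.8% of all probes) and for 21 that were higher (21.4%, and 32.8%). The median log2 fold change was -0.24 over the 98 probes and 0.0022 over all probes kept. Of the 98, the 50 DNAJA, DNAJB and DNAJC probes had a median of -0.034, with 6% lower and 4% higher by limma. Against the control mean, the median chaperone probe stood at -0.13 in fluvastatin replicate 1 and at -0.21 in replicate 2. With 1 probe per gene, 9 of 67 genes were lower and 3 higher, with a median of -0.19.

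These counts rest on few arrays and on the scaling. With either control replicate left out, most calls were lost among the chaperone probes and among all probes kept. Leaving out fluvastatin replicate 2 added calls in both sets. The chaperone median was -0.21 without control replicate 1 and -0.26 without control replicate 3. It was -0.21 without fluvastatin replicate 1 and -0.13 without fluvastatin replicate 2. Scaling to the median of all probes, most of them near background, moved the median of the probes kept by 0.19 and gave 9 lower and 8 higher chaperone probes, where all probes kept gave 961 lower and 3353 higher. Relative to that shift the chaperone median was -0.22.

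**Figure D1:**
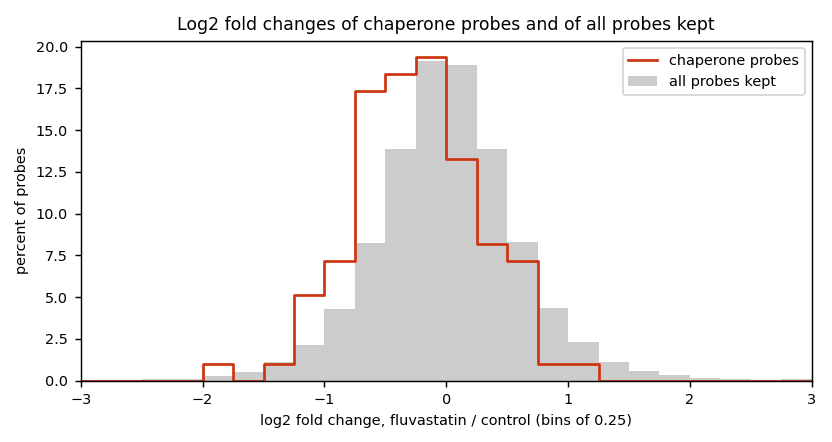
Share of probes (percent, vertical axis) in each bin of the log2 fold change of fluvastatin over control (horizontal axis), for all 21986 probes kept (grey bars) and the 98 chaperone probes (red line). The median of the chaperone probes is -0.24 against 0.0022 for all probes, and that of the 50 DNAJ probes among them is -0.034.

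**Figure D2:**
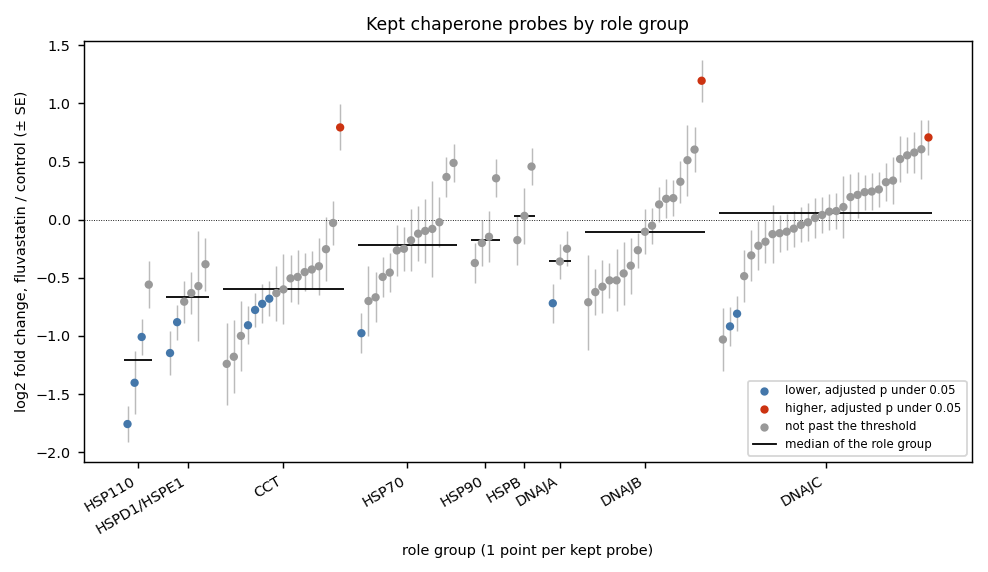
Log2 fold change of each of the 98 kept chaperone probes with its standard error (vertical axis), ordered within role groups (horizontal axis). Blue and red points passed the threshold, grey points did not, and black lines are group medians, the lowest of which is -1.21 for HSP110.

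The HSP110 group had the lowest median of the 9 role groups, -1.21 over 4 probes of 3 genes. HSP110 proteins are enlarged relatives of HSP70 that exchange its nucleotide and hold unfolded proteins. Of their 4 probes 3 were lower, each by at least 2-fold, where 8.29% of all probes kept were lower and 3.82% at least 2-fold lower. The groups overlapped for 0 of the 4, and 31.8% of all probes kept were lower without overlap.

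HSPA4L, which encodes an HSP110 protein also called APG-1, had log2 intensities of 8.73 and 8.56 in controls and 6.89 and 6.89 with fluvastatin. The fluvastatin arrays lay close together and far below both controls. Its log2 fold change was -1.76 ± 0.16 (SE), a 3.38-fold fall (adjusted p = 0.00717). It was past the threshold in 13 of 13 other settings, with log2 fold changes from -1.85 to -1.36.

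HSPA4, the APG-2 gene, had 9.32 and 9.33 in controls and 7.54 and 8.30 with fluvastatin on its brighter probe. Both fluvastatin values were below the controls, the first array by more. The log2 fold change was -1.40 ± 0.27 (adjusted p = 0.0261), and its value without fluvastatin replicate 1 was -1.02. The other HSPA4 probe gave -0.56 ± 0.20 and did not pass (adjusted p = 0.112).

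HSPH1, the inducible member also called HSP105, fell from 11.97 and 11.95 in controls to 10.91 and 10.99. The replicates of either group were within 0.1 of each other. The log2 fold change was -1.01 ± 0.15 (adjusted p = 0.0155). The HSPA4 and HSPH1 calls were lost without either control replicate.

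**Figure D3:**
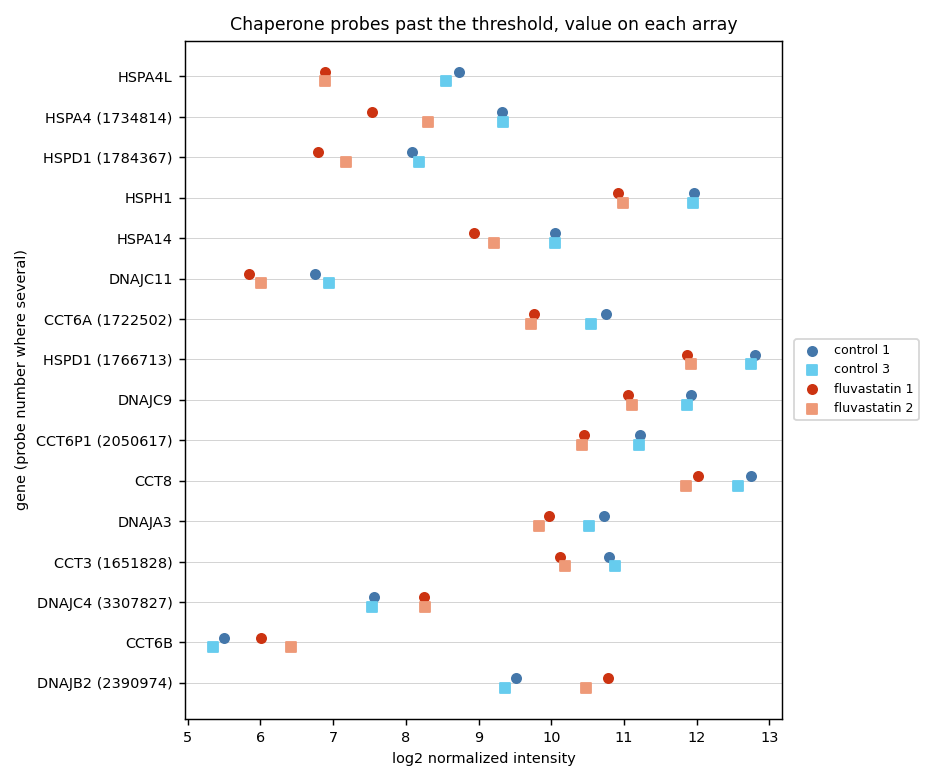
Log2 normalized intensity (horizontal axis) on each control array (blue shades) and fluvastatin array (red shades) for the 16 chaperone probes past the threshold, ordered by log2 fold change from HSPA4L at the top (-1.76) to DNAJB2 at the bottom (1.19). The groups do not overlap for any of the 16, but these were chosen by the test on the same values, so this is no separate support. Of all probes kept, 31.8% were lower and 32.8% higher without overlap. The position of a probe on the axis does not compare genes.

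Promoter windows of all kept chaperone genes that have one were searched for the heat shock element, the sequence that HSF1 trimers bind. Windows run from 250 bases before to 50 after a gene's start in RefSeq (GRCh38.p14), and 59 of the 67 genes had at least 1. A 2-unit element was written GAANNTTC or TTCNNGAA. A 3-unit element continues a 2-unit element, after the same gap of NN, with a further inverted GAA or TTC, so that each 3-unit match holds overlapping 2-unit matches. Both strands are covered, since each spelling or its partner is the reverse complement. A 2-unit match was present in 13.5% of 35097 windows of all genes and in 23 of 77 windows of the chaperone genes (29.9%). A 3-unit match was present in 0.49% of all windows and in 7 chaperone windows (9.09%). Some windows overlap, as those of neighbouring or repeated starts do.
The windows of HSPA4L and HSPH1 are shown because these genes fell, capitals marking 2-unit matches. HSPA4L has 3 windows, and the one with a match is printed. HSPH1 has 1 window, with 0 matches.
HSPA4L, chr4:127782072-127782371, plus strand: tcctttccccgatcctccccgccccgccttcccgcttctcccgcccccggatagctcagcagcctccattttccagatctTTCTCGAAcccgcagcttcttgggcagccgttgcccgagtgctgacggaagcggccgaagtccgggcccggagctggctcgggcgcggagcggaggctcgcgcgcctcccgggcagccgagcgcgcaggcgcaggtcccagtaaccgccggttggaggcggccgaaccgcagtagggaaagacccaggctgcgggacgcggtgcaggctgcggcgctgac
HSPH1, chr13:31162339-31162638, minus strand: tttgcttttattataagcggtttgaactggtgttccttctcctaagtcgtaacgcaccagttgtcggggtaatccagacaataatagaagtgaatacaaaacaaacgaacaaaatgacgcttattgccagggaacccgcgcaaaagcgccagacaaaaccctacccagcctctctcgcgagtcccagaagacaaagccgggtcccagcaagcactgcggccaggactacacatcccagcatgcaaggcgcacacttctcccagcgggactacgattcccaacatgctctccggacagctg

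The mitochondrial chaperonin group had a median of -0.67 over 6 probes, with 2 lower, 0 higher and 4 not past the test. Of all probes kept, 8.29% were lower. Both lower probes were of HSPD1, and with 1 probe per gene 0 of 2 genes passed. HSPD1, which encodes HSP60, had log2 values of 12.80 and 12.75 in controls and 11.86 and 11.92 with fluvastatin on probe ILMN_1766713. Each fluvastatin array was lower by a similar amount, with a log2 fold change of -0.88 ± 0.15 (adjusted p = 0.0208). A dimmer probe, ILMN_1784367, went from 8.08 and 8.18 to 6.79 and 7.18, a log2 fold change of -1.15 ± 0.19 (adjusted p = 0.0196). The brightest HSPD1 probe gave -0.71 ± 0.18, just outside the threshold (adjusted p = 0.0515, and from 0.00970 to 0.280 in the other settings), and the dimmest gave -0.63 (adjusted p = 0.0655). All 4 HSPD1 probes were lower in both fluvastatin arrays than in both controls, as were 31.8% of all probes kept.

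HSPE1, the lid of the same chaperonin, had 12.50 and 12.65 in controls and 11.91 and 12.48 with fluvastatin on its brighter probe. The groups did not overlap, but the second fluvastatin array lay close to the controls. Its log2 fold change of -0.38 ± 0.23 did not pass (adjusted p = 0.283). The other HSPE1 probe gave -0.57 ± 0.47, with controls of 10.36 and 11.63 that were further apart than the group means.

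HSPD1 and HSPE1 lie head to head: a RefSeq window of HSPD1 on the minus strand and that of HSPE1 on the plus strand of chromosome 2 share 204 bases. The other HSPD1 window, which starts further into that gene, is shown because HSPD1 was the gene with a lower probe that held a 3-unit element. It has 3 overlapping 2-unit matches, which make 2 overlapping 3-unit matches, all inside the run of capitals.
HSPD1, chr2:197499791-197500090, minus strand: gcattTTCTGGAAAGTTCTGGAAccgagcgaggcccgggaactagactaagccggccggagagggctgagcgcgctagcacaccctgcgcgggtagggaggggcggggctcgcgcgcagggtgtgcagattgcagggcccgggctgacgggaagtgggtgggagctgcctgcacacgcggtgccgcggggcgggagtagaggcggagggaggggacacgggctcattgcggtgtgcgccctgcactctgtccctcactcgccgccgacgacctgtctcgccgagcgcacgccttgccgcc

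Of the TRiC probes, 16 of 17 had log2 fold changes below 0, as did 10966 of all 21986 probes kept, and 4 of the 16 passed the test. TRiC is a double ring of related subunits, encoded by TCP1 and CCT2 to CCT8, and CCT6 has a widely expressed gene, CCT6A, and a testis-enriched paralog, CCT6B. The rule also took CCT6P1, annotated as a transcribed pseudogene. The 17 kept probes belonged to 10 genes, and of the probes 4 were lower, 1 was higher and 12 did not pass. The groups did not overlap for 14 lower probes (82.4%, and 31.8% of all probes kept) and 1 higher probe (5.88%, and 32.8%). The median log2 fold change was -0.60, and against the control mean it was -0.64 in each fluvastatin array. Which probes were lowest differed between the arrays: 8 of the 17 probes lay more than 0.5 apart between the fluvastatin arrays, and 0 of 17 between the controls.

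CCT8, the theta subunit, had log2 values of 12.75 and 12.56 in controls and 12.02 and 11.85 with fluvastatin. Its log2 fold change was -0.72 ± 0.17 (adjusted p = 0.0397). CCT6A, the zeta subunit, had 10.75 and 10.55 in controls and 9.76 and 9.72 with fluvastatin on probe ILMN_1722502. That probe fell by 0.91 on the log2 scale (SE 0.16, adjusted p = 0.0225). The brighter CCT6A probe gave -1.24 ± 0.35 and did not pass (adjusted p = 0.0654), with fluvastatin arrays at 9.27 and 10.34.

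CCT3, the gamma subunit, had 10.80 and 10.87 in controls and 10.11 and 10.19 with fluvastatin on probe ILMN_1651828, a log2 fold change of -0.68 ± 0.15 (adjusted p = 0.0375). The brighter CCT3 probe gave -0.25 ± 0.27 (adjusted p = 0.544), with fluvastatin arrays of 11.44 and 10.67 on either side of the controls. The CCT3 probes thus differed in outcome.

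TCP1, the alpha subunit, had 11.27 and 11.24 in controls and 9.81 and 10.70 with fluvastatin on its brightest probe. Both treated arrays were lower, the first by more, and the log2 fold change of -1.0 ± 0.30 did not pass (adjusted p = 0.0749). Other TCP1 probes gave -0.60 (adjusted p = 0.213) and -0.028 (adjusted p = 0.928). CCT2 (beta) gave -0.49 ± 0.23, CCT4 (delta) -0.51 ± 0.20 and CCT5 (epsilon) -0.40 ± 0.24, with adjusted p from 0.133 to 0.290. The 3 probes of CCT7 (eta) gave log2 fold changes from -0.63 to -0.43, with adjusted p from 0.109 to 0.119. In each of CCT2, CCT4, CCT5 and CCT7 both fluvastatin arrays lay below both controls, as they did for 31.8% of all probes kept. For CCT5 the first fluvastatin array, at 7.90, was close to the controls at 7.96 and 7.98.

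CCT6P1 had 11.23 and 11.20 in controls and 10.45 and 10.43 with fluvastatin, a log2 fold change of -0.78 ± 0.15 (adjusted p = 0.0260). Its parent gene family shares sequence with it, so the source of this signal between CCT6A and CCT6P1 is uncertain. A dimmer CCT6P1 probe gave -1.18 ± 0.32 (adjusted p = 0.0564). CCT6B went the other way, from 5.50 and 5.34 to 6.01 and 6.42, a log2 fold change of 0.79 ± 0.20 (adjusted p = 0.0474). The CCT6B signal was close to background and its log2 fold change was 0.36 with the authors' deposited log2 values, where it did not pass.

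**Figure D4:**
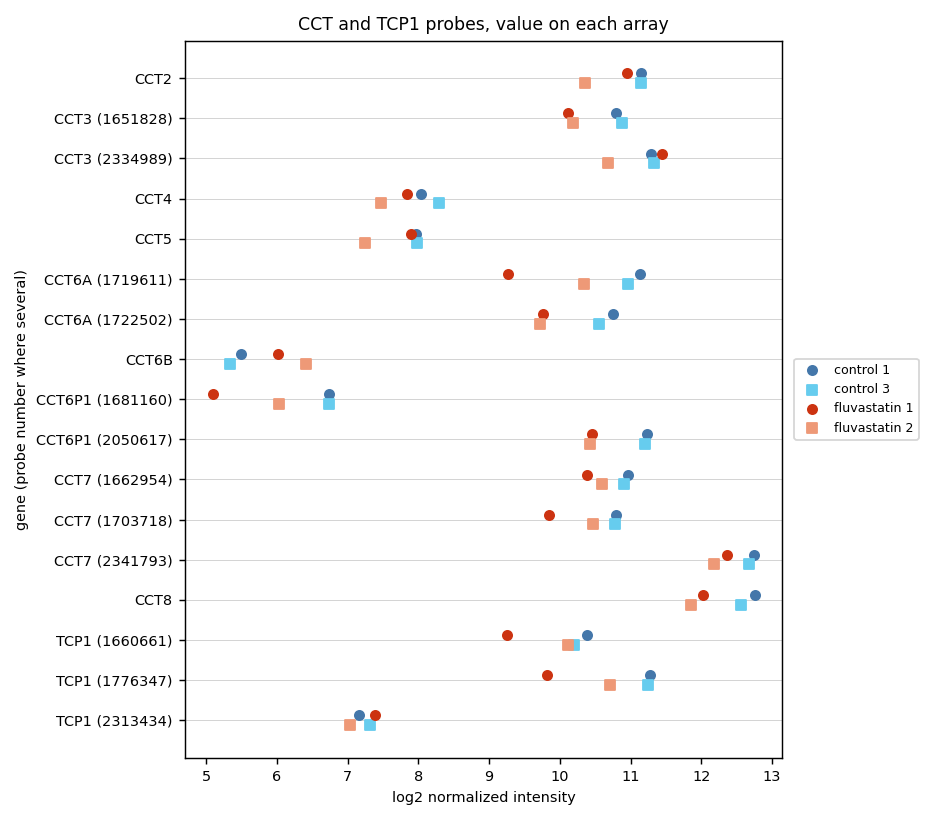
Log2 normalized intensity (horizontal axis) of the 17 kept TCP1, CCT and CCT6P1 probes on each control array (blue shades) and fluvastatin array (red shades). The groups do not overlap for 14 lower probes and for the higher probe of CCT6B; axis positions do not compare genes.

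The HSP70 group had 1 lower probe, 0 higher and 13 not past the test among 14 probes of 11 genes, with a median of -0.21. The call was HSPA14, whose product works at the ribosome with the J protein DNAJC2. HSPA14 fell from 10.05 and 10.06 in controls to 8.94 and 9.22 with fluvastatin, a log2 fold change of -0.98 ± 0.17 (adjusted p = 0.0218). DNAJC2, named after its value was seen, had 5.56 and 6.10 in controls and 4.53 and 5.07 with fluvastatin. It lay just outside the threshold, with a log2 fold change of -1.03 ± 0.27 (adjusted p = 0.0541), and was detected on 1 fluvastatin array.

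HSPA9, which encodes the mitochondrial HSP70 mortalin, had 11.85 and 11.80 in controls and 11.42 and 10.90 with fluvastatin. Both treated arrays were lower, and the log2 fold change of -0.67 ± 0.21 did not pass (adjusted p = 0.0855). HSPA8, the constitutive cytosolic HSC70, had 13.48 and 13.33 in controls and 13.69 and 12.93 with fluvastatin. Its treated arrays lay on either side of the controls, and the log2 fold change was -0.097 ± 0.27 (adjusted p = 0.826). A second HSPA8 probe gave -0.12 ± 0.24.

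The stress-inducible HSP70 genes did not pass. HSPA1B had 11.95 and 12.02 in controls and 12.21 and 12.49 with fluvastatin, both above the controls, with a log2 fold change of 0.37 ± 0.17 (adjusted p = 0.185). HSPA1A had 9.27 and 9.38 in controls and 8.59 and 9.90 with fluvastatin, so the treated arrays stood on opposite sides of the controls. Its log2 fold change was -0.080 ± 0.41 (adjusted p = 0.908). Without fluvastatin replicate 1 it was 0.57 and without replicate 2 it was -0.73. HSPA1A and HSPA1B are nearly identical genes, so their signals may not be separate. HSPA1L, a neighbour of theirs known from testis, gave 0.49 ± 0.17 (adjusted p = 0.0971).

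HSPA6, a strictly inducible HSP70 gene named after its values were seen, stayed near background. Its raw intensities were between 74.0 and 83.0 in controls and between 77.9 and 87.6 with fluvastatin over both probes. Each HSPA6 probe was detected on 1 array of each group. The kept HSPA2 probe was detected in both controls and in 0 of 2 fluvastatin arrays. It was kept through the controls alone and did not pass the test, and no difference is drawn from it.

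The HSP90 group had 0 of 4 probes past the threshold by limma and 0 with an unadjusted p below 0.05. HSP90AA1, the inducible alpha form, had 14.36 and 14.34 in controls and 14.12 and 13.83 with fluvastatin on its brightest probe, both below the controls. Its log2 fold change was -0.37 ± 0.17 (adjusted p = 0.182). A second probe gave -0.20 (adjusted p = 0.514), and the dimmest of the 3 was higher in both treated arrays, at 0.36 (adjusted p = 0.176). HSP90AB1, the constitutive beta form, had 12.51 and 12.41 in controls and 12.58 and 12.04 with fluvastatin, values that overlap, with a log2 fold change of -0.15 ± 0.22 (adjusted p = 0.670).

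The 3-unit element was present in windows of 7 of the 59 genes, DNAJA1, DNAJB6, HSP90AA1, HSP90AB1, HSPA6, HSPA8 and HSPD1. Of these 7, 1 had a lower probe, HSPD1, and 6 had 0 probes past the threshold. Over all kept probes of these 7 genes the log2 fold changes ran from -1.15, on an HSPD1 probe, to 0.36, on the dimmest HSP90AA1 probe. Of 15 genes with a 2-unit match alone, 1 had a lower probe (HSPA4L) and 1 a higher probe (CCT6B). Of 37 genes with 0 matches, 7 had a lower probe and 2 a higher probe. A gene was counted when any of its kept probes passed, so genes with several probes had more chances. HSPA14, CCT6A and CCT6P1, each with a lower probe, had no window and are not in these counts. Counted by probe, 8.29% of all probes kept were lower and 8.64% higher. Differences between these classes were not tested. A match is a run of letters and does not show binding. Windows of HSPA8 and HSP90AB1 are shown as those that held 2 separate 3-unit matches each and did not pass the test. That of DNAJB2, printed with them, has 0 matches and belongs to the gene with the largest rise.
HSPA8, chr11:123062087-123062386, minus strand: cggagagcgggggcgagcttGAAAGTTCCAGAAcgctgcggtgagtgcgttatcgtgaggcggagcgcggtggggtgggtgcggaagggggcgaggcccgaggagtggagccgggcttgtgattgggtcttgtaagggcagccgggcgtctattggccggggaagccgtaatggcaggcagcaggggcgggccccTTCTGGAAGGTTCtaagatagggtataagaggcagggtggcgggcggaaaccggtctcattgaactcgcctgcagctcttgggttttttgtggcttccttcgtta
HSP90AB1, chr6:44247693-44247992, plus strand: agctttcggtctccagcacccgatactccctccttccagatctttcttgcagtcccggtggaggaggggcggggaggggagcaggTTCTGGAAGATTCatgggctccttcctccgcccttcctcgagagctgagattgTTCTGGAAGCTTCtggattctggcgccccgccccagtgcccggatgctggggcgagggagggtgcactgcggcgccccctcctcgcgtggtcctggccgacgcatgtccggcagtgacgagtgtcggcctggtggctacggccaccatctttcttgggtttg
DNAJB2, chr2:219279116-219279415, plus strand: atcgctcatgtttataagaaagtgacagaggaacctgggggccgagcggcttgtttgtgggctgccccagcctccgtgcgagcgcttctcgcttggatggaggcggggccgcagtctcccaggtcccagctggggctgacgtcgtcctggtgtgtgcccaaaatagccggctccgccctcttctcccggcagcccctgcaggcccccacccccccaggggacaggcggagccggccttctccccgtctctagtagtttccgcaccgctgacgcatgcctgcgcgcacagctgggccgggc

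Small heat shock proteins bind unfolded proteins without ATP. HSPB1 (HSP27) had 13.05 and 13.08 in controls and 13.45 and 13.59 with fluvastatin. Both treated arrays were higher, and the log2 fold change of 0.46 ± 0.16 did not pass (adjusted p = 0.0967, and below the threshold in 5 of 13 other settings, from 0.0114 to 0.440). HSPB8, a partner of the co-chaperone BAG3, gave -0.18 ± 0.21 (adjusted p = 0.590). HSPB3 gave 0.033 ± 0.24 (adjusted p = 0.936) and was detected on 1 array of each group. Of 3 kept probes 0 passed by limma, and 1 had an unadjusted p below 0.05.

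J proteins of the DNAJA class, closest in build to bacterial DnaJ, gave 3 kept probes, 1 of them lower. DNAJA3, the mitochondrial J protein also called TID1, fell from 10.73 and 10.51 to 9.97 and 9.83, a log2 fold change of -0.72 ± 0.17 (adjusted p = 0.0404). The cytosolic DNAJA1 (12.32 and 12.24 in controls, 12.03 and 12.03 with fluvastatin) gave -0.25 ± 0.15 (adjusted p = 0.288). DNAJA2 gave -0.36 ± 0.15 (adjusted p = 0.157). For each of the 3 genes both fluvastatin arrays lay below both controls, as they did for 31.8% of all probes kept.

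The DNAJB class had 0 lower probes, 1 higher and 16 not past the test among 17 probes of 8 genes. The median was -0.10, and 0.16 with 1 probe per gene, so its sign depends on how probes are counted. DNAJB2, a J protein that binds ubiquitin and hands clients to the proteasome, rose from 9.51 and 9.36 in controls to 10.78 and 10.48 with fluvastatin. Both treated arrays were well above the controls, with a log2 fold change of 1.19 ± 0.18, a 2.29-fold rise (adjusted p = 0.0156). It passed in 11 of 13 other settings and was lost without either control replicate. A dim second probe of DNAJB2 gave 0.60 ± 0.20 (adjusted p = 0.0865).

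DNAJB1 (HSP40), the main inducible partner of HSP70, had 10.10 and 10.05 in controls and 10.33 and 10.19 with fluvastatin. Both treated arrays were above the controls by a little, with a log2 fold change of 0.19 ± 0.16 (adjusted p = 0.438, and from 0.139 to 0.810 in the other settings). DNAJB6, which blocks protein aggregation, had 11.91 and 11.82 in controls and 11.31 and 11.38 with fluvastatin. Its log2 fold change was -0.52 ± 0.15 (adjusted p = 0.0701), and a second probe gave -0.62 ± 0.20 (adjusted p = 0.0853). DNAJB4 gave -0.58 ± 0.23 and, on a dimmer probe, -0.52 ± 0.27 (adjusted p = 0.132 and 0.221).

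The DNAJC class joins proteins that share little beyond the J domain. Of its 30 probes of 25 genes, 2 were lower, 1 was higher and 27 did not pass, with a median of 0.054. DNAJC9, which binds histones H3 and H4 and works with HSP70 in their handling, had 11.92 and 11.86 in controls and 11.05 and 11.11 with fluvastatin. The replicates were within 0.1 of each other, and the log2 fold change was -0.81 ± 0.15 (adjusted p = 0.0247). DNAJC11, a mitochondrial protein tied to the cristae-organising complex, fell from 6.75 and 6.94 to 5.85 and 6.01, a log2 fold change of -0.92 ± 0.17 (adjusted p = 0.0234). DNAJC4 rose from 7.56 and 7.53 to 8.25 and 8.26, a log2 fold change of 0.71 ± 0.15 (adjusted p = 0.0323), and its dimmer probe gave 0.26 (adjusted p = 0.270). The other DNAJC probes had log2 fold changes from -1.03 for DNAJC2 to 0.61 for DNAJC30.

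Of the 67 genes, 23 had more than 1 probe kept, and in 3 of these (DNAJB5, DNAJB12 and HSP90AA1) probes differed in sign, with 0 of their probes past the threshold. The counts of lower and higher probes in each role group stand beside 8.29% lower and 8.64% higher among all probes kept. The differences between role groups were not tested.

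A list of 59 companion genes covered heat shock factors, co-chaperones, prefoldin, tubulin-folding factors and organelle chaperones. The array held 56 of them, and 72 probes of 53 genes were kept. Of these probes 8 were lower (11.1%), 2 were higher (2.78%) and 62 did not pass, with a median log2 fold change of -0.17. The 8 include a CLPB probe that was kept through the controls alone, where it is high, so it inflates the lower share. The shares of all probes kept were 8.29% lower and 8.64% higher.

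Among HSP70 cofactors 3 of 19 probes were lower and 0 higher. GRPEL1, the mitochondrial nucleotide exchange factor that serves mortalin, fell from 10.04 and 9.93 to 9.02 and 8.70, a log2 fold change of -1.12 ± 0.18 (adjusted p = 0.0179). Its paralog GRPEL2 gave -0.75 ± 0.16 (adjusted p = 0.0337). BAG5, an exchange factor with several BAG domains, gave -0.66 ± 0.16 on 1 of its probes (adjusted p = 0.0422). The brighter BAG5 probe gave -0.43 ± 0.17 and did not pass (adjusted p = 0.139).

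Among HSP90 co-chaperones 2 of 14 probes were lower and 0 higher. CHORDC1, a CHORD-domain protein that binds HSP90, fell from 9.24 and 9.08 to 7.92 and 8.15, a log2 fold change of -1.13 ± 0.17 (adjusted p = 0.0161). FKBP4, the immunophilin FKBP52 of steroid receptor complexes, fell from 9.18 and 9.19 to 8.25 and 8.24, a log2 fold change of -0.94 ± 0.15 (adjusted p = 0.0178). In both, the treated arrays lay close together and below both controls.

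Of the organelle chaperones and proteases, 2 of 7 probes were lower. TRAP1, the mitochondrial HSP90, gave -0.71 ± 0.16 (adjusted p = 0.0350). Its groups did not overlap, and 31.8% of all probes kept were lower without overlap. The other was CLPB, a mitochondrial disaggregase whose probe was detected in both controls and in 0 of 2 fluvastatin arrays. CLPB was at least 1.58-fold lower (adjusted p = 0.0250), but its probe was kept through the controls alone, where it is high, so its call supports nothing. Prefoldin, which passes nascent actin and tubulin to TRiC, had 1 lower probe of 8, PFDN4 (-0.80 ± 0.20, adjusted p = 0.0492). TBCB, a tubulin-folding cofactor, rose from 10.91 and 10.99 to 11.90 and 11.73, a log2 fold change of 0.86 ± 0.16 (adjusted p = 0.0241), as 1 of 11 probes of its group.

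HSF1 had log2 values of 7.92 and 7.95 in controls and 7.86 and 7.64 with fluvastatin, and its log2 fold change of -0.19 ± 0.16 did not pass (adjusted p = 0.455). HSF4, a factor best known from the lens, gave 0.69 ± 0.22 on its dimmer probe, which did not pass (adjusted p = 0.0801). That probe was kept through the fluvastatin arrays alone, and no difference is drawn from it. The brighter HSF4 probe rose from 4.86 and 4.77 to 6.14 and 5.48, a log2 fold change of 1.00 ± 0.25 (adjusted p = 0.0470). The HSF4 signal was near background and passed in 4 of 12 other settings. Without control replicate 1 or control replicate 3, 0 companion probes passed by limma, where adjusted p of the 10 named probes had been between 0.0161 and 0.0492.

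**Figure D5:**
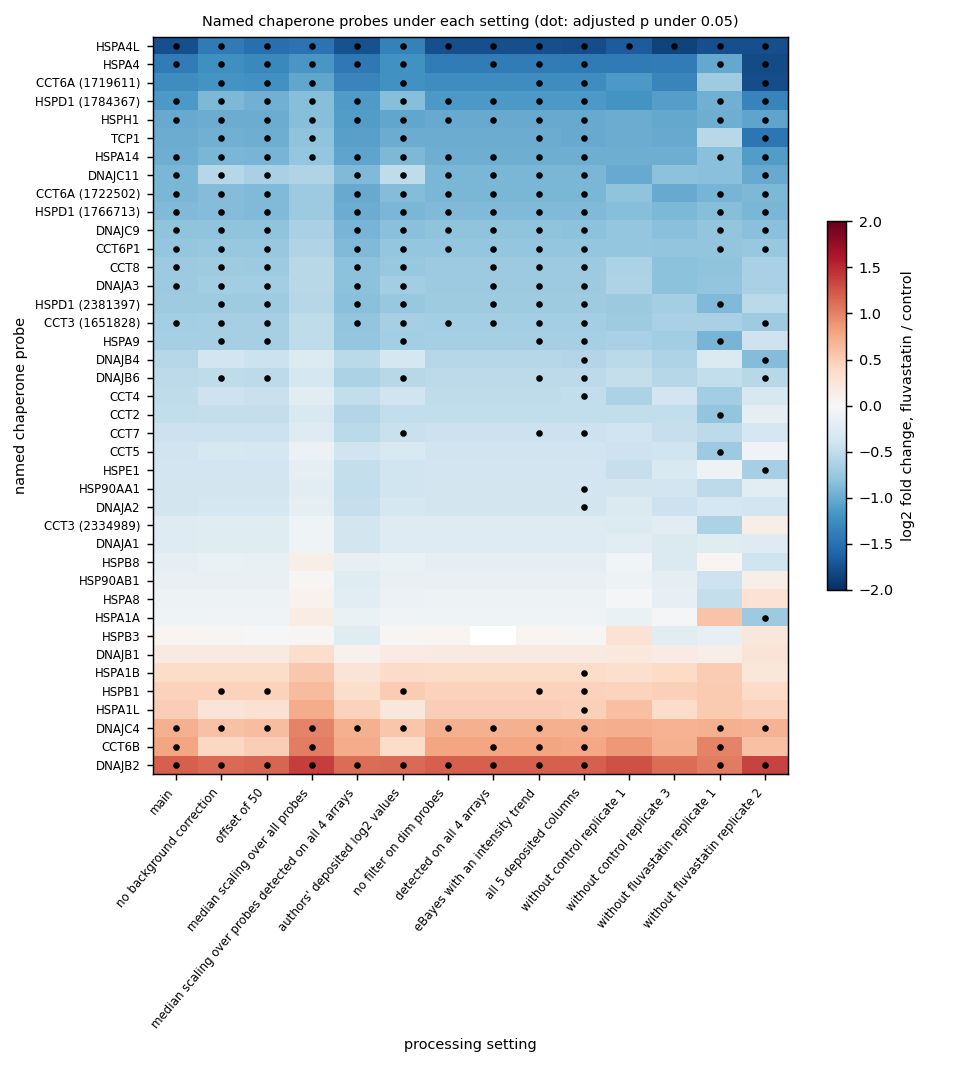
Log2 fold change of fluvastatin over control (colour) of the named chaperone probes (vertical axis) under the main and 13 other processing settings (horizontal axis), with dots where the adjusted p was below 0.05. HSPA4L has a dot under every setting shown and is the 1 probe shown with a dot when a control array is left out. Blank cells are probes that a setting did not test.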

How the data were processed

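RNA of MDA-MB-231 cells was hybridised to Illumina bead arrays. Per the file headers, the deposited non-normalized table pairs an intensity with a detection p-value for each probe and sample. The authors' processed table holds log2 values with columns of nearly equal distribution; the steps are not given in the sources used here, and the submitters' processing notes name R 3.1.0. Every sample column was used or checked (0 left unused).

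Control replicate 2 was left out because its intensities and detection p-values equalled the mean of the other controls to within 1e-06. The intensities of the other 4 arrays were processed with neqc of limma 3.58.1 (R 4.3.3): background estimated from detection p-values, normexp correction, an offset of 16, quantile normalization and log2. Probes with a detection p-value below 0.05 on at least 2 arrays were kept. The comparison used limma's lmFit and eBayes, two-sided, with 2 residual and 3.72 prior degrees of freedom, and Benjamini-Hochberg adjustment over all 21986 probes kept and a threshold of 0.05. The SE beside a log2 fold change is limma's moderated one. The number of arrays limits precision. The limma comparison was also run on simulated data with the same spread in both groups. Over all probes kept the median absolute log2 gap between replicates was 0.25 for fluvastatin and 0.13 for controls. That run therefore lends no support to the calls here.

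Symbols came from the platform annotation (30113 probes with 1 symbol, 8 with several, 17110 with none), and all 80 member symbols matched RefSeq. A gene's representative is its kept probe with the highest mean. Where a group had 0 detected arrays, the fold is a bound. Members, lists and tests were chosen with earlier results of these data known. Named were probes past the threshold, the 3 genes with the smallest p per role group, the TRiC subunits and classical members, and companion genes past the threshold; DNAJB14, DNAJC2, DNAJC30, HSPA2, HSPA6 and HSF1 were named after their values were seen. Promoters are from RefSeq (GRCh38.p14); the files name no build, so positions are given for these windows alone and not for probes or genes. Alternatives changed the background correction, offset, scaling, filter, variance model and samples. Arrays were left out with normalized values and kept probes unchanged, so the lone array of a group is assumed to vary like the others.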

Additional observations from a re-analysis of the deposited data

How the results depend on the processing

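Of 647 recomputed log2 fold changes of the 50 named probes, 490 kept direction and side of the threshold, 92 lost the call, 53 gained it and 12 changed sign. HSPA4L passed in all 13 settings. Other calls were lost in at least 2. The tallies over settings, here and in the results, include the fit with all 5 deposited columns. That fit counts a mean as a control, so a pass in it adds no support. The loss without either control was general, and the cause was not tested.

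The count of chaperone probes past the threshold (16; 13 lower, 3 higher) was 25 (21 lower) without background correction, 25 (20 lower, 5 higher) with an offset of 50, 26 (22 lower) with the authors' deposited log2 values, 27 (23 lower) with an intensity trend and 44 (33 lower, 11 higher) with all 5 deposited columns, which counts a mean as a control. Median scaling over all probes gave 8 higher. Leaving out 1 array gave from 1 to 35 (1 to 30 lower, 0 to 5 higher). The companion count (10) was 16 under each of 3 settings (background uncorrected, offset 50, authors' values), 18 with a trend, 33 with all 5 columns and from 0 to 25 leaving out 1 array. The count over all probes kept (3722) was 8927 (4427 lower, 4500 higher) with all 5 columns and from 490 to 6980 (228 to 3563 lower, 262 to 3417 higher) leaving out 1 array. Median scaling over all probes gave 961 lower and 3353 higher. Calls over all probes kept also rose to 4841 on uncorrected background and to 4826 under an intensity trend. They were 4855 for the authors' values and 4813 when the offset was 50. Whether the chaperone and companion gains differed from this general one was not tested.

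The chaperone median (-0.24) was -0.033 with median scaling over all probes, -0.31 with scaling over probes detected on all 4 arrays (a shift of -0.084 in all probes), -0.18 with the authors' values, -0.11 without a filter on dim probes, and from -0.26 to -0.13 leaving out 1 array. Group medians changed sign as follows. DNAJB was 0.19 with median scaling over all probes. Small heat shock proteins were -0.16 with scaling over detected probes, -0.034 without a filter and from -0.23 to 0.29 leaving out 1 array. Leaving out 1 array gave from -0.0062 to 0.10 for DNAJC and from -0.42 to 0.070 for HSP90. Among probes not past the threshold, median scaling over all probes turned HSP90AB1 to 0.027, HSPA1A to 0.14, HSPA8 to 0.065 and HSPB8 to 0.12, and scaling over detected probes turned HSPB3 to -0.25. Leaving out 1 array gave ranges of -0.64 to 0.13 for the brighter CCT3 probe, -0.42 to 0.12 for HSP90AB1, -0.73 to 0.57 for HSPA1A, -0.48 to 0.28 for HSPA8, -0.23 to 0.29 for HSPB3 and -0.40 to 0.047 for HSPB8.

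No paired analysis was possible because the labels do not say that any control array is paired with a fluvastatin array. Probes near background, such as CCT6B, HSF4, CLPB and DNAJC11, have log2 fold changes whose size depends on the background correction and offset.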

Other observations

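Of the 98 chaperone probes, 28 (28.6%) lay more than 0.5 apart on the log2 scale between the fluvastatin arrays and 7 (7.14%) between the controls. Over all probes kept the shares were 21.0% and 6.85%. Fluvastatin replicate 2 exceeded replicate 1 by 1.30 for HSPA1A and by 1.28 for a probe of DNAJB14, a J protein of the endoplasmic reticulum membrane. It was the lower of the arrays for HSPA8 (12.93 against 13.69), for CCT5 (7.25 against 7.90) and for HSP90AB1 (12.04 against 12.58).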
